A study of Mus musculus with 12 samples.

Results

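The loci described here are the PIWI-interacting RNA (piRNA) loci of mouse oocyte small RNA libraries that carry the name of a gene. They were taken as every feature of the table whose name began with pi- followed by a gene symbol, which gave 250 of 2030 features and left 217 other piRNA loci, named by chromosome band, for comparison. The 250 features were transcripts, numbered within a name, and belonged to 114 gene names. Small RNA was sequenced in 12 libraries of oocytes collected by hand from unstimulated ovaries, 4 for each of 3 groups. The groups were wild type mice of wild type ancestry, Khdc3-null mice, and mice of wild type genotype with a Khdc3-null grandfather and a wild type grandmother, called descendants below. Khdc3 encodes a protein of the subcortical maternal complex, an assembly of the oocyte and early embryo, and the series concerns its effect on metabolism across generations. Strain, age and the number of animals per library are not given in the sources used here, so p-values measure the spread among these libraries, which may be technical.

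piRNAs are small RNAs bound by PIWI proteins, which guide these proteins to transposon and other transcripts in the germ line. Many are cut from long single-stranded precursors, and a class of these precursors are the messenger RNAs of protein-coding genes, often processed along their 3′ ends, whereas the pachytene precursors of the testis come mostly from intergenic loci switched on by the transcription factor A-MYB. Mouse oocytes also hold piRNAs, besides endogenous small interfering RNAs and fragments of messenger RNA. The table gave no read lengths, so reads on these loci are called reads and not piRNAs, and whether they are piRNAs, other small RNAs or fragments of the host messenger was not tested.

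Host genes were found in GENCODE M21, by current or older symbol, for 112 of the 114 names, the exceptions being pi-March08 and pi-BC026590. Of these hosts, 111 were protein-coding genes and 1, Gm5878, was a long intergenic noncoding RNA gene. The hosts lay on 19 chromosomes with none on the X, and 5 neighbouring pairs were within 100000 bases of each other. The closest pairs were Acvr2b and Exog on chromosome 9, 9948 bases apart, and the paralogs Zyg11a and Zyg11b on chromosome 4, 11676 bases apart on the same strand. The sequence of the loci themselves was not used here, and the 300-base promoters of the hosts (250 bases before to 50 after a start listed by RefSeq) were read as what the members share beyond their names. A promoter of full length was found for 85 hosts. The GC box GGGCGG, searched on both strands, was in 63 of the 85, or 74.1%, against 46.3% of 17492 promoters of protein-coding genes. Their median GC content was 65.3% against 56.3%. The letters TATAAA of the TATA box were in 7.06% against 13.3%, the letters CCAAT in 43.5% against 39.0%, and the short MYB core AACNG in 72.9% against 79.2%. No match of 1 of these motifs is part of another, and a match describes the host's start and not the start of the piRNA precursor.

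Promoters are shown for the most abundant name, the runner-up and Zyg11b, which between them span 0 to 6 GC boxes. Sequences are from RefSeq on GRCm38.p6, 5′ to 3′ on the strand of the gene, with GC boxes of either strand in capitals. The promoter of D10Wsu102e is chr10:83359971-83360270 on the plus strand with 64% GC, that of Lpp is chr16:24393100-24393399 on the plus strand with 64.7% GC, and that of Zyg11b is chr4:108301041-108301340 on the minus strand with 67.7% GC.
D10Wsu102e: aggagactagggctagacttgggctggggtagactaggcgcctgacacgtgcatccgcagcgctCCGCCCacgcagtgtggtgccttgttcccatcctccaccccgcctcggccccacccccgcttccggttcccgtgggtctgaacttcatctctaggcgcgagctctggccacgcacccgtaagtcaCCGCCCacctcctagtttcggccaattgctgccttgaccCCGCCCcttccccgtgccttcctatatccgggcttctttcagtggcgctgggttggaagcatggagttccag
Lpp: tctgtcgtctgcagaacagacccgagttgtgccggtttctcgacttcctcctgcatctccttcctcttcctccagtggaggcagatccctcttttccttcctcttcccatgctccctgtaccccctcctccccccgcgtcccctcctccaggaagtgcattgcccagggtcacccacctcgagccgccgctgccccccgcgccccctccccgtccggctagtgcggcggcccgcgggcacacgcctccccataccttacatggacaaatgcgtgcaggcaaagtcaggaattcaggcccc
Zyg11b: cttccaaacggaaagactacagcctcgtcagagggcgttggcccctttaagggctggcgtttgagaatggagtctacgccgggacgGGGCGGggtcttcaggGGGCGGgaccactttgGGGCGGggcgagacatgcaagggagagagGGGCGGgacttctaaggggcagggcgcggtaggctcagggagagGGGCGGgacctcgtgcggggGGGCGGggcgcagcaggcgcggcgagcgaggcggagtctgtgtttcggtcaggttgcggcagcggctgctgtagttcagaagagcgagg
The D10Wsu102e window holds 3 GC boxes, the Zyg11b window 6, and the Lpp window none.

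The gene-named loci took up a steady share of the libraries. Mapped reads numbered 2918620 to 7640554 per library, of which 374663 to 975206 lay on these loci. In wild type oocytes the loci held 14.7%, 14.4%, 14.8% and 13.8% of the reads on listed features, in Khdc3-null oocytes 13.1%, 14.2%, 15.5% and 14.8%, and in descendants 13.4%, 14.2%, 15.5% and 14.4%. The 3 groups overlapped throughout, with means of 14.4% ± 0.468, 14.4% ± 1.02 and 14.4% ± 0.883 (SD, n = 4 each). Band-named piRNA loci held less, 4.59% to 5.63%. Levels below are in RPM, for which each library was scaled to the same total of mapped reads, so a value is relative to the library. In bulk libraries, fewer cells and less RNA per cell cannot be told apart. The hairpins of the miR-290 cluster, markers of early embryos and oocytes, summed to 52.1 to 116 RPM over the 5 of 6 sought that were matched by name. Mir292a was sought, while a hairpin listed as Mir292 averaged 34.1 RPM, so this sum may be incomplete. By contrast, 13 hairpins typical of stroma and vessels summed to 13320 to 18062 RPM in wild type, 13629 to 16247 in Khdc3-null and 10820 to 12260 in descendant libraries, and 10 hairpins typical of granulosa cells to 3536 to 5109 RPM. Hairpins typical of male germ cells (miR-34 and miR-449) had 1666 to 3040 RPM. For leukocytes 3 of 5 hairpins sought were matched by name, with 18.7 to 69.4 RPM. For erythrocytes 2 of 4 were matched, with 2.88 to 68.4 RPM. The sums for blood cells are therefore incomplete. Mir486 averaged 119 RPM, above the whole erythrocyte range, and so was not in that sum. Mir142 averaged 45.7 RPM and Mir146 61.5 RPM, too much for both to be in the leukocyte sum. No listed marker hairpin was at 0 in all libraries. The part of attached cells in the values below was not tested.

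Nearly all gene-named loci were detected, and most were abundant. Of the 250 features, 241 had a read in every library, and the median feature had 214 RPM against 99.9 RPM for band-named loci and 20.8 RPM for miRNA hairpins. Of the features, 29 averaged 1000 RPM or more, 139 were between 100 and 1000 RPM, 70 between 10 and 100 RPM and 12 under 10 RPM. Only 7 of the 217 band-named features reached 1000 RPM. A level of 1.606 RPM in at least 4 libraries was required for the tests between groups, and 242 features reached it. The 8 that did not were Zfp346.1, Tfcp2l1.2 and 6 of the 14 transcripts of Ip6k1, which encodes an inositol phosphate kinase.

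The transcripts of a name ranged from near-equal to far apart. Of the 83 names with several transcripts, 49 had all of them within 1.5-fold of each other, 24 were 1.5-fold to 10-fold apart and 10 were further apart. For 121 pairs of transcripts from 61 names, chosen because each held 45% to 55% of the reads of the pair, the split was followed across libraries. Its variance was a median of 1.04 times that of counting error alone. Near-equal transcripts of a name should therefore not be read as independent measurements, although the counts of features below include each of them. Unequal ones were not part of this check. The abundance of a name is given below as that of its highest transcript. At the other extreme D10Wsu102e.2 had a mean of 7567 RPM and D10Wsu102e.1 24.0 RPM, a 315-fold difference. Exoc8.2, from the gene of an exocyst subunit, had 2524 RPM against 20.8 RPM for Exoc8.1, 121-fold apart. Zfp346.2, from a zinc finger gene, had 519 RPM, while Zfp346.1 averaged 1.10 RPM and had no read in 4 libraries. At these 3 names, 1 transcript held nearly all of the reads.

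**Figure D1:**
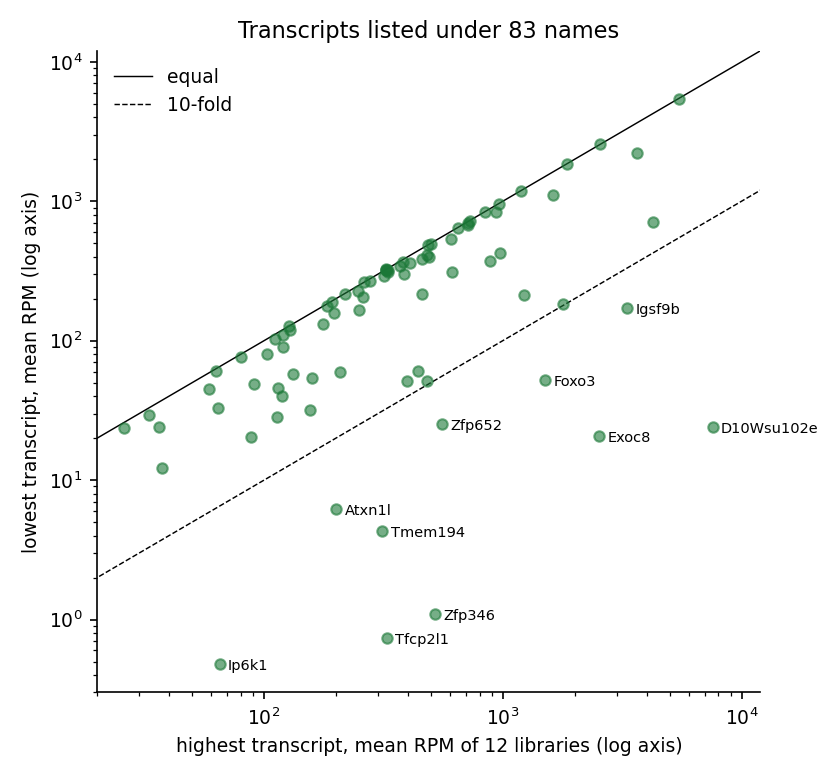
Mean RPM over 12 libraries of the highest (x, log axis) and lowest (y, log axis) transcript of each of 83 names with several transcripts. Points on the solid line had equal transcripts, and the 10 named points lie below the dashed line of a 10-fold difference.

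Reads were concentrated on few names. The most abundant, D10Wsu102e, held 8.92% ± 1.41 (SD, n = 12) of the reads over the highest transcript of each name, the first 5 names held 28.6% ± 0.785 and the first 10 held 43.7% ± 0.942. Between 12 and 14 names were enough for 50% of the reads, and between 55 and 58 for 90%. The effective number of names (the exponential of the Shannon entropy of their shares, equal to 114 if all were equal) was 55.2 ± 1.48 (SD, n = 12), with a range of 51.8 to 57.2. It was 55.0 ± 1.33 in wild type, 56.3 ± 0.615 in Khdc3-null and 54.4 ± 1.84 in descendants (SD, n = 4 each), differences within the spread. Band-named loci were spread more evenly at the top, with 4.66% ± 0.410 on their first name and 33.9% ± 0.448 on the first 10 of 100 names. The ranges of the top-10 share did not overlap between the 2 kinds of locus, 42.7% to 45.7% for gene names against 33.0% to 34.4% for band names. With the transcripts of a name summed, Lpp came first with 8.33% ± 0.255 and D10Wsu102e second, and the first 10 names held 41.5% ± 0.838.

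**Figure D2:**
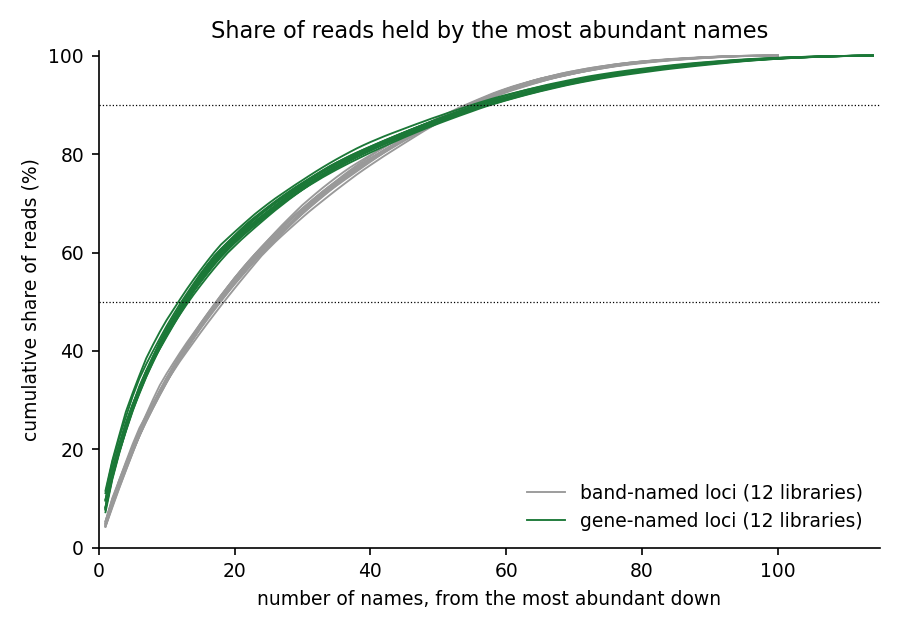
Cumulative share of reads (y, percent) against the number of names from the most abundant down (x), 1 line per library. Gene-named loci (green) reach 50% with 12 to 14 names and band-named loci (grey) with 18 or 19, and the lines of the 12 libraries lie close together.

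Ranked by the highest transcript of a name, the leading names kept their places in nearly every library. D10Wsu102e, whose symbol gives no function, lies at chr10:83360221-83488505 (mm10). Its highest transcript had 6669, 8222, 9792 and 7737 RPM in wild type, 5686, 6468, 7514 and 6160 RPM in Khdc3-null and 8241, 9726, 7508 and 7083 RPM in descendant libraries. It was first in all 12 libraries, with its 3 lowest values in Khdc3-null oocytes but with overlap between the groups. Lpp at chr16:24393507-24992578, the gene of a LIM domain protein of cell adhesions, had 5684, 5288, 5500 and 5144 RPM in wild type, 4740, 5379, 6144 and 5650 RPM in Khdc3-null and 5201, 5119, 6239 and 5844 RPM in descendants. It was second throughout. Wdfy3 at chr5:101832956-102069921, which encodes a scaffold of selective autophagy, had 4559, 4043, 4325 and 3945 RPM in wild type, 3861, 4094, 4451 and 4434 RPM in Khdc3-null and 4278, 4210, 4486 and 4347 RPM in descendants. It took the third place in 11 libraries and ranged over only 1.18-fold. This order depends on the use of the highest transcript. With the transcripts of a name summed, Lpp was first in every library, and the second place changed between D10Wsu102e, Igsf9b and Fam53b. Wdfy3 then ranked 6 by its mean.

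Below the third place the order of neighbours was often within the spread. Fam53b, which took the third place in descendant replicate 3, had 3590, 3262, 3726 and 3257 RPM in wild type, 2973, 3526, 3850 and 4059 RPM in Khdc3-null and 3133, 3204, 4783 and 4258 RPM in descendants. Igsf9b, the gene of an adhesion molecule of inhibitory synapses, averaged 3322 ± 425 RPM (SD, n = 12), and Zyg11b, the gene of a substrate receptor of a cullin ubiquitin ligase, 3310 ± 463 RPM. Igsf9b was the higher of the 2 in 7 of 12 libraries. Zyg11b was above the next name, Arhgap20 (a GTPase-activating protein), in all 12. Arhgap20 averaged 2564 ± 315 RPM and Exoc8 2524 ± 510 RPM, and neither was ahead in more than 7 libraries. Klf13, a Krüppel-like transcription factor, averaged 2265 ± 245 RPM, and Kcng3, a modifying subunit of potassium channels, 2113 ± 137 RPM. From Zmat3 (a zinc finger RNA-binding protein, 1956 ± 299 RPM) through Ppp1r12b (a subunit of myosin phosphatase, 1909 ± 168 RPM), Ankrd11 (a chromatin regulator, 1857 ± 202 RPM) and Trim71 (an RNA-binding ubiquitin ligase and classical let-7 target, 1825 ± 224 RPM) to Dnmt3a, each name exceeded the next in 6 to 8 libraries. Dnmt3a, the de novo DNA methyltransferase that sets imprints in the oocyte, averaged 1790 ± 158 RPM. Tet3, the maternal enzyme that oxidises methylated cytosine, came next with 1630 ± 134 RPM, and was noted after its values were seen.

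**Figure D3:**
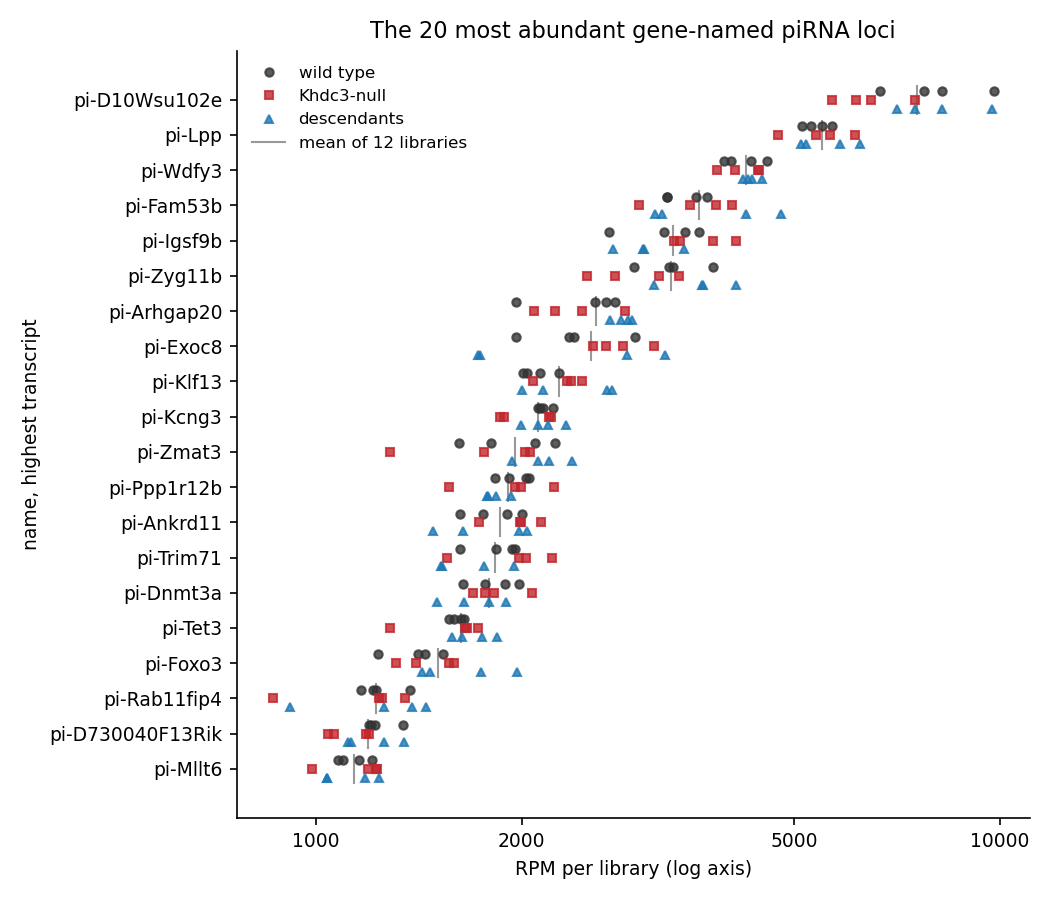
RPM in each library (x, log axis) of the highest transcript of the 20 most abundant names, with symbols for the 3 groups and a line at the mean of 12 libraries. D10Wsu102e and Lpp lead in every library, and the groups overlap at each name shown.

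RPM is not scaled by length, and the lengths of the loci were not used here. As a guide, the RPM of the highest transcript of a name was divided by the length of the longest coding transcript of the host in GENCODE M21. On this per-kilobase scale Fam53b came first with 665 RPM per kb, followed by Kcng3 with 630, Exoc8 with 549, Zyg11b with 381 and Arhgap20 with 358. Lpp was sixth with 355, and 8 of the first 10 names by RPM were also among the first 10 per kilobase. D10Wsu102e fell to place 46 with 61.4 RPM per kb, as its longest annotated coding transcript spans 123179 bases. The per-kilobase order, too, depends on the use of the highest transcript, and it was not computed for summed transcripts. Mgll, for example, took place 15 with 842 RPM on its highest transcript, but its 4 transcripts summed to 3354 RPM.

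Some hosts also hold miRNA hairpins, which gives a second small RNA readout from the same gene. A hairpin listed in the annotation lay inside 13 of the hosts. The mature sequences of 3 of them are shown with the seed (bases 2 to 8) in capitals, as examples of a hairpin above, near and far below its piRNA locus, and their seeds differ. They are from RefSeq on GRCm38.p6, from Mir26a-2 in Ctdsp2 (chr10:126995543-126995564), Mir6927 in Mllt6 (chr11:97677060-97677081) and Mir28a in Lpp (chr16:24827868-24827889), all on the plus strand.
miR-26a-5p: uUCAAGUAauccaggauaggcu
miR-6927-5p: gUGAGGGGauccagcccaggcu
miR-28a-5p: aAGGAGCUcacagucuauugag
Ctdsp2, the gene of a phosphatase of the RNA polymerase II tail, had 132 RPM on its locus while the hairpin Mir26a-2 had 1187 ± 253 RPM (SD, n = 12). The same 5p sequence also comes from Mir26a-1, so the reads cannot be assigned to 1 of these hairpins. Mllt6 had 1138 RPM and its hairpin Mir6927 had 976 ± 129 RPM. Lpp had 5494 RPM while its hairpin Mir28a ranged from 0 to 2.51 RPM. At these 3 hosts, picked to show such a contrast, the order of the loci was not that of the hairpins.

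Gene-named loci varied little between libraries of a group. Among features of 10 RPM or more, the within-group coefficient of variation (CV) had a median of 13.8% for 238 gene-named features, 17.7% for 193 band-named features, 30.4% for 768 miRNA hairpins and 26.5% for 230 tRNA loci. Counting error alone would give medians of 2.74%, 3.67%, 6.83% and 6.89%. At like abundance, between 100 and 1000 RPM, the medians were 12.7% for gene-named and 14.1% for band-named features, 18.6% for miRNA hairpins and 26.4% for tRNA loci. All 29 gene-named features of 1000 RPM or more stayed within 2-fold between the highest and lowest of the 12 libraries, and 18 stayed within 1.5-fold. All 7 band-named features at that level also stayed within 2-fold, and 3 within 1.5-fold. Of 32 miRNA hairpins at that level 25 stayed within 2-fold and 1 within 1.5-fold. The order of the 250 features correlated between libraries with a Spearman coefficient of 0.974 to 0.994 over 66 pairs. Its median was 0.988 within groups and 0.988 between groups. These are correlations across features of libraries that share one annotation and are given as a description.

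**Figure D4:**
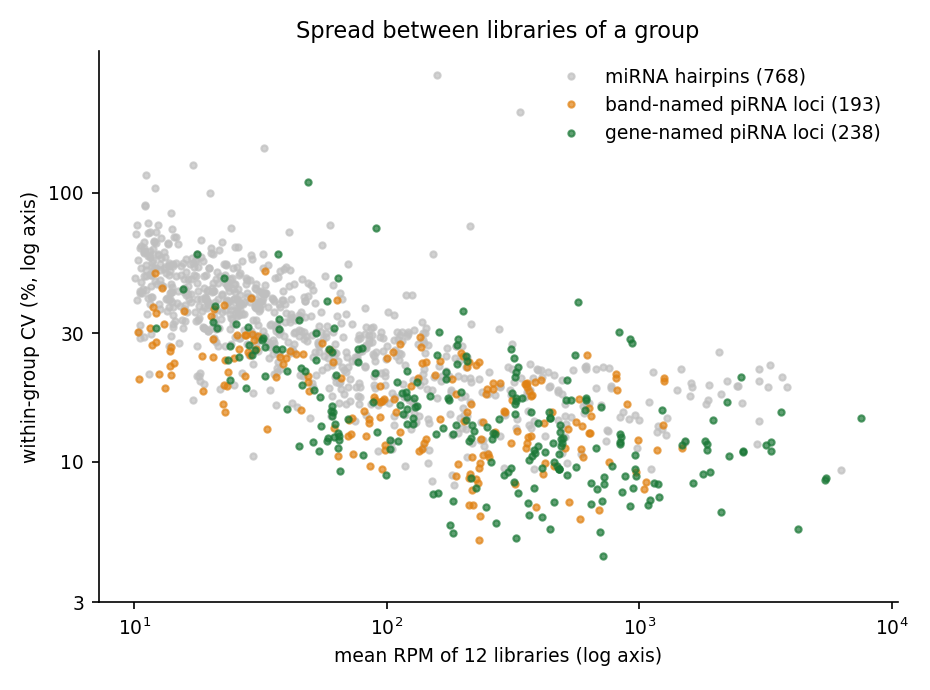
Within-group CV (y, percent, log axis) against mean RPM (x, log axis) for features of 10 RPM or more. Gene-named loci (green, 238) have a median CV of 13.8%, band-named loci (orange, 193) 17.7% and miRNA hairpins (grey, 768) 30.4%.

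The steadiest names were Map3k9, Wdfy3, Tfcp2l1 and Shank3. Map3k9, the gene of a mixed-lineage kinase, had 678, 722, 754 and 711 RPM in wild type, 664, 672, 721 and 718 RPM in Khdc3-null and 712, 740, 792 and 728 RPM in descendants, a CV of 4.99% over the 12 libraries. Tfcp2l1, a transcription factor of pluripotent cells, had a CV of 5.39% around 326 RPM, and Shank3, a scaffold of excitatory synapses, 5.76% around 183 RPM. At the other end Klhl11, a Kelch protein of cullin ligases, had 69.3, 75.3, 81.0 and 76.4 RPM in wild type, 99.2, 65.4, 80.3 and 52.9 RPM in Khdc3-null and 288, 42.1, 46.7 and 114 RPM in descendants. Its CV was 71.9%, and its highest value was in descendant replicate 1, where its other transcript was also highest, at 214 RPM against 19.5 to 45.8 RPM elsewhere. Fth1, the ferritin heavy chain, had a CV of 56.7% and was highest, at 95.5 RPM, in Khdc3-null replicate 1. Hist1h1a, a linker histone, ranged from 3.68 to 40.3 RPM and Pou6f1, a POU transcription factor, from 6.87 to 49.7 RPM. Genes such as Fth1 and Hist1h1a have close copies elsewhere in the genome, and how reads with several positions were treated is not stated, so these levels are uncertain.

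Single libraries stood apart within their groups. In Khdc3-null replicate 1, 71 of the 242 tested gene-named features, or 29.3%, had their lowest value of the 12 libraries, and their median deviation from the mean of all libraries was -0.16 (log2). The whole library was low in the same way, with 27.3% of all 1889 tested features at their lowest and a median deviation of -0.17. In Khdc3-null replicate 3, 60 gene-named features, or 24.8%, had their highest value, with a median deviation of 0.12, against 11% of all tested features and 0.06. Among descendants, some loci differed between replicates. Exoc8.2 had 1724 and 1736 RPM in descendant replicates 1 and 2 but 3238 and 2848 RPM in replicates 3 and 4. Foxo3.2, from the gene of the transcription factor that keeps primordial follicles dormant, had 1431 and 1469 RPM against 1967 and 1744 RPM in the same libraries. For Smcr8.3, from the gene of a partner of the autophagy regulator C9orf72 that was picked after its values were seen, these levels were 763 and 597 against 1528 and 1179 RPM. Zyg11a ran the other way, with 1291 and 691 RPM in replicates 1 and 2 and 539 and 461 RPM in replicates 3 and 4. At these 4 loci the range within the descendants exceeded every difference between group means. The same held at Lpp, where descendants ranged from 5119 to 6239 RPM and the group means were 5404, 5478 and 5601 RPM. It therefore does not set these loci apart.

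Khdc3-null oocytes were set against wild type oocytes to ask whether loss of the gene went with other levels of these loci, and no gene-named locus passed the test. With limma on log2(RPM + 1) and Benjamini-Hochberg adjustment over 1889 features, 0 of 242 passed an adjusted p of 0.05, and the background was also 0% of all features. Without adjustment, 7 of 242 members, or 2.89%, had a p under 0.05 against a background of 5.03%, and a limma-voom fit of the recovered reads gave 4. The median log2 difference was -0.01 over the members and -0.05 over all features. The 95% interval lay within 2-fold either way at 230 members, or 95%, against 83.3% of band-named loci and 56.2% of all features. Interval width follows the fitted variance, which depends on abundance, here and in the later comparisons. The median SE was 0.157 over the members, 0.190 over band-named loci and 0.315 over all features. Intervals were not compared at like abundance. Groups did not overlap at 2 members, 0.826% against a background of 3.18%. These were Ccdc117.1 and Hjurp.1, both higher in Khdc3-null and named because they were only 2.

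The smallest p belonged to Ccrn4l.1, from the gene of the circadian phosphatase nocturnin. Its levels were 288, 378, 456 and 364 RPM in wild type and 197, 262, 348 and 207 RPM in Khdc3-null libraries, which overlap. The log2 difference was -0.57 ± 0.19 (SE) with an adjusted p of 0.83 by limma, and Ccrn4l.2 had nearly the same values. D10Wsu102e.2 differed by -0.32 ± 0.13 with an adjusted p of 0.94 by limma, the Khdc3-null mean being 6457 RPM and the wild type mean 8105 RPM. The others were Nr2c2.2, from an orphan nuclear receptor gene (469 against 605 RPM), Phf20.1, from the gene of a histone acetylation cofactor (873 against 1023 RPM), and Rplp1.1, from a ribosomal protein gene with many copies (10.8 against 3.64 RPM). None of these passed.

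Descendants were compared with wild type to ask whether ancestry alone went with other levels, and again no member passed. The count was 0 of 242 with a background of 0%. Without adjustment 1 member, or 0.413%, had a p under 0.05 against a background of 4.08%, and limma-voom gave 2. No member had groups without overlap, against a background of 2.75%. The median log2 difference was 0.01 over the members and -0.02 over all features. The interval lay within 2-fold at 227 members, or 93.8%, against 84.7% of band-named loci and 55.1% of all features. The member with the smallest p was Mafg.1, from the gene of a small Maf transcription factor, with 154, 170, 209 and 154 RPM in wild type and 158, 115, 119 and 133 RPM in descendants. It differed by -0.38 ± 0.18 with an adjusted p of 0.95 by limma. Ddx19b.3 (a helicase of mRNA export, 32.1 against 22.2 RPM), Tacc1.2 (a microtubule-associated protein, 507 against 409 RPM), Foxo3.3 (1611 against 1370 RPM) and Zyg11a.1 (745 against 503 RPM) followed, and none passed. The Zyg11a.1 difference was 0.46 (log2) with all libraries and 0.16 without descendant replicate 1, and that of Foxo3.3 was 0.23 with all libraries and 0.14 without descendant replicate 3. The stroma hairpins were lower in all descendant than in all wild type libraries, as given above, and their part in these values was not tested.

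Descendants were last compared with Khdc3-null oocytes, and since each group enters more than 1 comparison, the 3 comparisons share libraries. No member of 242 passed, with a background of 0%. Without adjustment 11, or 4.55%, had a p under 0.05 against a background of 6.41%, and limma-voom gave 10. Groups did not overlap at 6 members, 2.48% against a background of 3.02%. The median log2 difference was 0.03 over the members and 0.05 over all features. The interval lay within 2-fold at 226 members, or 93.4%, against 81.9% of band-named loci and 54.3% of all features. Phf20.2 had the smallest p, with 324, 394, 384 and 386 RPM in Khdc3-null and 431, 550, 455 and 455 RPM in descendants. All 4 descendant libraries were above all 4 Khdc3-null libraries, by 0.34 ± 0.12 (log2) with an adjusted p of 0.72 by limma. Zyg11b.1 averaged 3645 RPM in descendants against 2952 RPM in Khdc3-null, and its neighbour Zyg11a.1 averaged 745 against 461 RPM, with adjusted p values of 0.72 by limma for each. The Zyg11a difference was 0.58 (log2) with all libraries and 0.28 without descendant replicate 1. D10Wsu102e.2 (8139 against 6457 RPM) and Zfp652.2 (677 against 477 RPM) complete the 5, and none passed. The Zfp652.2 difference was 0.47 (log2) with all libraries and 0.27 without descendant replicate 1, where it had 990 RPM. Over the 3 groups together, limma's F test called 0 of 242 members, and 4 at an unadjusted p under 0.05, or 1.65% against a background of 4.92%.

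**Figure D5:**
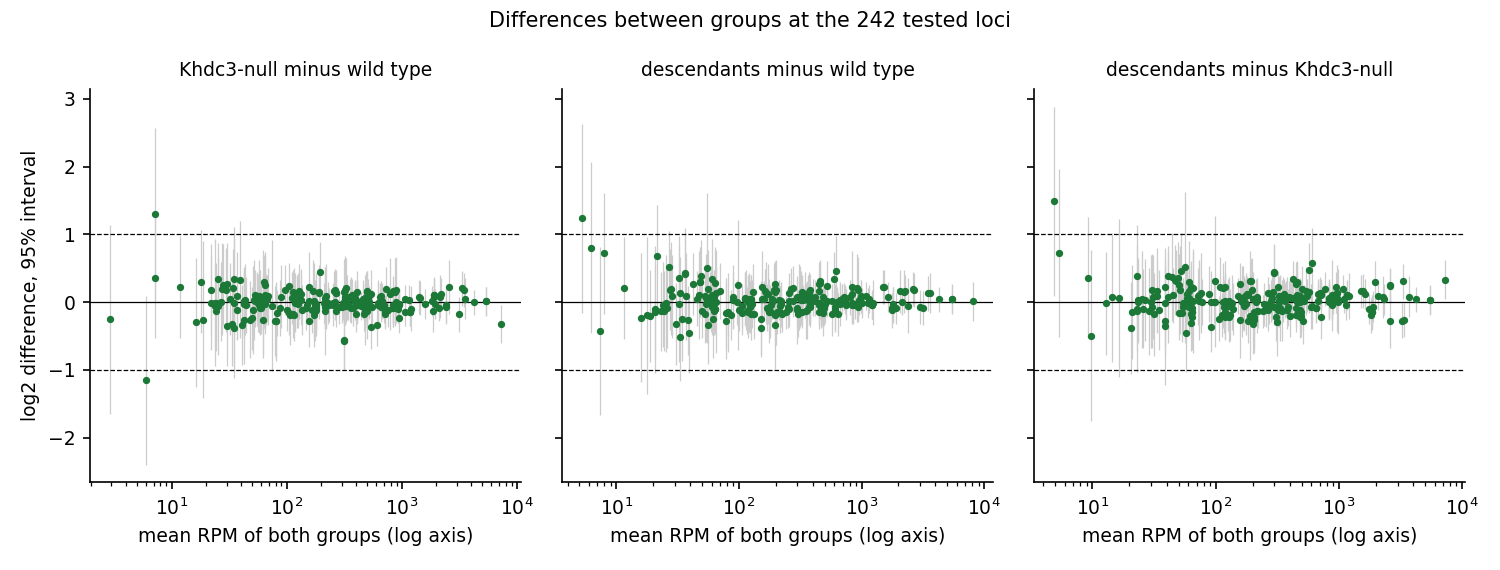
Log2 difference with its 95% interval (y) against the mean RPM of both groups (x, log axis) at the 242 tested features, 1 panel per comparison, with dashed lines at 2-fold. Intervals lie within the dashed lines at 230, 227 and 226 features from left to right, and no feature passed the adjusted test.

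Grouped by the function of the hosts, the loci showed no list with a called member in any comparison. Zinc finger and other transcription factor genes were the largest list, with 10 names and a median of 391 RPM, led by Klf13, Foxo3 and Zfp652. Zinc finger symbols, among them Zfp346, were listed by prefix without a check that each encodes a transcription factor. In Khdc3-null against wild type, 5 of the 10 had a fitted log2 difference above 0 and the median was 0.03, where 40.7% of all features were above 0. In descendants against wild type 9 of the 10 were above 0 and the median was 0.13, where 45.9% of all features were above 0 and their median was -0.02. In descendants against Khdc3-null 9 of the 10 were above 0 with a median of 0.10, where 56.8% of all features were above 0 and their median was 0.05. These counts rest on which symbols were listed. The list was drawn by symbol alone and leaves out transcription factor genes named above, of which Mafg (132 against 172 RPM), Nr2c2 (601 against 680 RPM) and Pou6f1 (20.3 against 21.5 RPM) had lower and Tfcp2l1 (334 against 328 RPM) had higher means in descendants than in wild type. The ubiquitin pathway list had 6 names and a median of 581 RPM. Within it Trim71 led, followed by March08 with 712 RPM and Rnf169, a ubiquitin ligase of the DNA damage response, with 672 RPM. Being drawn by symbol, it leaves out Zyg11b (3310 RPM) and Klhl11 (90.9 RPM), described above as parts of cullin ligases. It also leaves out Zyg11a (570 RPM), the paralog of Zyg11b. The list of kinases and phosphatases had 4 names with a lowest mean of 60.65 RPM, and included Ip6k1 at 65.2 RPM and Ppp1r12b. Ctdsp2 (132 RPM) and Ccrn4l (325 RPM), described above as phosphatase genes, are left out of it. Chromatin genes had 3, namely Phf20, Cbx5 (heterochromatin protein 1 alpha, 207 RPM) and Hist1h1a, and their median difference was -0.23 in Khdc3-null and -0.17 in descendants against wild type. This list, too, was drawn by symbol, and leaves out Ankrd11 (1963 RPM in Khdc3-null against 1821 RPM in wild type), Dnmt3a (1840 against 1822 RPM) and Tet3 (1581 against 1609 RPM). Membrane transport had 2 names, Kcng3 and Slc43a2 (an amino acid transporter, 103 RPM), and RNA binding and processing had 1, Ddx19b. Both lists were drawn by the symbol in the name of the locus. They therefore leave out Mcart1 (58.7 RPM), whose host is now named Slc25a51, and Eif2c2 (1086 RPM), whose host is now named Ago2. The RNA list also leaves out Zmat3 and Trim71, described above as RNA-binding. Of 5 symbols listed as uncharacterised the highest was D730040F13Rik, whose host is now named Tmem245, with 1192 RPM. It was followed by 1700016M24Rik with 613 RPM and Gm5878 with 188 RPM. These were picked by the form of the symbol, which leaves out D10Wsu102e (7567 RPM), whose symbol gives no function either. No name fell on the list of germ line genes.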

How the data were processed

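Small RNA was measured in 12 oocyte libraries, 4 per group. The deposited table holds RPM with 1 added, as the authors scaled it. Alignment was to mm10 with Bowtie2, per the submitters' processing notes, whose version and treatment of reads with several positions are not given in the sources used here. After 1 was subtracted, 100% of values were whole multiples of a step per library within 0.01 reads, which gave the reads and depths. A count of 0 allows 3 reads, at most 1.03 RPM, for counting error only. Library replicates are numbered in accession order.

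Groups were compared with limma 3.58.1 in R 4.3.3 (variance trend, 3 group means, log2(RPM + 1)) over 1889 features with 1.606 RPM or more in 4 libraries, which is 10 reads in a library of median depth. Fold changes refer to RPM + 1. Shares, effective numbers and CVs were computed per library in Python 3.11.15. Alternatives were other constants, no filter, another scaling, limma-voom, 1 transcript per name, summed transcripts and leaving out each library. Named loci were the 15 most abundant names, the 5 of smallest p per comparison, the 4 lowest and 4 highest CVs at 10 RPM or more, and up to 3 names per list of host functions by symbol. The members and lists were chosen with earlier results of these data known.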

Additional observations from a re-analysis of the deposited data

Results flagged for a closer look

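Of 129 groups of 4 libraries examined at 43 loci, 5 held a library whose gap to its neighbour passed Dixon's critical value for 4 samples, where chance gives about 1 in 20. Zfp652.2 had 363 RPM in Khdc3-null replicate 1 against 504 to 524 RPM in the other Khdc3-null libraries. Tfcp2l1.1 had 275 RPM in the same library against 324 to 332 RPM. Shank3.2 had 176 RPM in descendant replicate 3 against 193 RPM in the others. Pou6f1.1 had 29.2 RPM in descendant replicate 4 against 16.7 to 18.3 RPM. March08.1 had 824 RPM in descendant replicate 1 against 704 to 717 RPM. The causes were not tested.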

How the results depend on the processing

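No paired analysis was possible because the labels give no replicate number, litter or batch shared between groups. The count of gene-named loci past the adjusted threshold was 0 in each comparison under all 7 other settings and with each of 12 libraries left out, where it ranged from 0 to 0. The lowest adjusted p of a member was 0.39, for Khdc3-null against wild type without Khdc3-null replicate 3. At an unadjusted p under 0.05 the counts ranged, with 1 library left out, from 2 to 8 for Khdc3-null against wild type (7 with all libraries, 2 without wild type replicate 2, wild type replicate 3 or Khdc3-null replicate 1, and 4 without Khdc3-null replicate 2), from 0 to 10 for descendants against wild type (1 with all libraries, 10 without descendant replicate 2, 4 without descendant replicate 1 or 3, 3 without wild type replicate 2 or 4, 2 without wild type replicate 3, Khdc3-null replicate 1 or descendant replicate 4, and 0 without Khdc3-null replicate 4) and from 4 to 15 for descendants against Khdc3-null (11 with all libraries, 4 without descendant replicate 2, 5 without Khdc3-null replicate 4 and 7 without Khdc3-null replicate 1). Median-of-ratios scaling gave 4, 6 and 11. With 1 transcript per name, limma gave 4, 0 and 6 of 114 names at an unadjusted p under 0.05. Over all 1761 features of that setting the counts were 90, 75 and 112. Of 265 alternative values for the 15 named differences, 0 changed sign. These differences were picked for the smallest p in the same libraries, so a stable sign was likely from the selection and is no test of them.

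The share of reads on these loci depends on its denominator by construction: 14.4% of listed reads became 13.1% of all mapped reads, 33.3% of listed reads without rRNA and 9.78% with 1 transcript per name. With every transcript counted the first 10 held 31.5% and the effective number was 106, and with transcripts summed, a setting chosen after seeing the data, 41.5% and 59.4. Leaving out 1 library gave 14.3% to 14.5% for the share, 43.5% to 43.8% for the first 10 names and 55.0 to 55.5 for the effective number. Depth allows a CV of 2.74% at the median locus, and below about 10 RPM counting error widens every interval.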
